A study of Sus scrofa with 15 samples.

Results

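The genes described here encode the degradative enzymes of the lysosome, the proton pump that acidifies it, and the membrane, activator and regulatory proteins around them. They were taken from a list of 52 gene symbols: 27 hydrolases, 16 subunits or accessory proteins of the vacuolar H+-ATPase (V-ATPase) and 9 other members. Of the 52, 47 could be matched to a gene of the count files and 46 passed the filter on low counts, among 14918 tested genes of 30477 counted. The cathepsin CTSK and the V-ATPase subunits ATP6V0C, ATP6V0E1, ATP6V1E1 and ATP6V1G1 were not matched and have no value here. NAGLU, an enzyme of heparan sulfate breakdown, was matched but lay under the filter, at a mean of 0.16 to 0.19 CPM (counts scaled to a common total on genes) in the 3 diets.

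RNA was sequenced from backfat, the subcutaneous fat of the back, of growing Iberian pigs, a single breed, that differed in diet. Each of the 15 libraries came from 1 pig, with 5 pigs per diet picked by the amount and quality of their RNA. Control (C) pigs received a compound feed, pigs of the dry olive pulp (DOP) group a compound feed made with olive pulp, and pigs of the wet crude olive cake (WCOC) group a compound feed together with free access to silage of olive cake. Per the methods of the study, each diet was fed in 1 pen and the compound feeds were given at different degrees of restriction, so diet, pen and feeding level cannot be told apart. All WCOC libraries and control libraries 1 to 4 were run on 1 flow cell (called A here), and all DOP libraries with control library 5 on the other (B).

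Lysosomes receive material from endocytosis, phagocytosis and autophagy and break it down with acid hydrolases: cathepsins cut proteins, glycosidases and sulfatases take apart glycans and glycolipids, and lipases, ceramidases and sphingomyelinases act on lipids. The V-ATPase pumps protons into the lumen with its membrane-bound V0 sector, driven by ATP hydrolysis in the cytosolic V1 sector. In fat, adipocytes and macrophages both carry lysosomes, and macrophages that clear dying adipocytes are rich in them. TFEB and TFE3 are transcription factors known to switch on many lysosomal genes through an E-box with the core CACGTG.

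That core was looked for in the promoters of the members, taken as 250 bases before to 50 bases after the RefSeq gene start on Sscrofa11.1. It occurred in 14 of 51 member promoters (27.5%) and in 1547 of 19506 promoters of all protein-coding genes (7.93%). The core reads the same on both strands, so 1 search covers both. The members' promoters had a median GC content of 62.7% against 58.7% for all. The stretches below run from 100 bases before to 20 bases after the gene start of 3 members, with the core CACGTG in capitals. HEXA, a hexosaminidase subunit that was lower in WCOC, is shown for its 2 copies, which begin at -91 and -41 counted from the first base of the gene as 0. MCOLN1, a lysosomal calcium channel with nearly equal means in C and DOP, is shown for its 1 copy, beginning at 9. CTSS, the cathepsin with the largest fall, is shown because the core is missing from its promoter.
HEXA chr7:60878431-60878550 plus strand: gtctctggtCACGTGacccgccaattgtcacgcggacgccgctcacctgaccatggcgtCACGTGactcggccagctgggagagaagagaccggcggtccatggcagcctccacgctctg
MCOLN1 chr2:71613312-71613431 minus strand: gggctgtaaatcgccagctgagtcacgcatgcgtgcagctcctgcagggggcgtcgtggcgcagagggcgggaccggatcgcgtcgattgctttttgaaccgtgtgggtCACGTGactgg
CTSS chr4:98415173-98415292 plus strand: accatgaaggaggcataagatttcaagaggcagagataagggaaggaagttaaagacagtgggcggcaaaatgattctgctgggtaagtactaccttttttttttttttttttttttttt
Members with and without the core were then compared by description. Among the 12 tested members with it, 2 passed the test and the limit on the log2FC given below in WCOC vs. C (HEXA and GUSB), and the median log2FC was -0.26. Among the 34 without it, 7 passed and the median was -0.31. A match of letters is a description of the sequence and says nothing about binding.

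The libraries held 22373715 to 34745218 counts on genes. Changes were tested with edgeR's quasi-likelihood model over all 15 libraries, and a gene was called when its Benjamini-Hochberg adjusted p over all tested genes was under 0.05 and its log2FC was at least 0.58 in size. SE is the standard error of the log2FC. Adipocyte markers such as ADIPOQ and PLIN1 summed to 12927 to 22495 CPM in every library. Skeletal muscle markers were uneven, at 5959 to 45900 CPM in DOP libraries 2, 4 and 5, at 2032 and 3549 CPM in control libraries 1 and 3, and at most at 684 CPM in the others. Macrophage markers summed to 935 and 1212 CPM in control libraries 3 and 5, to 441 to 524 CPM in the other controls, and to 240 to 609 CPM in DOP and WCOC. Since the tissue was sequenced whole, fewer cells of a type and less RNA per cell cannot be told apart.

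Levels of different genes were compared per kb of RefSeq exon. Among the 25 tested hydrolases the highest over the 15 libraries were CTSD (an aspartic protease) at a mean of 424 CPM per kb, CTSB (a cysteine protease) at 242 and CTSZ (a carboxypeptidase) at 166. LIPA, the acid lipase that frees fatty acids and cholesterol from endocytosed lipids, followed at 137 CPM per kb, and ARSB stood last of the tested hydrolases at 1.54. Among the 12 V-ATPase genes with values, ATP6V0D1 (47.5 CPM per kb), ATP6V1A (45.4) and ATP6V0B (41.1) were highest. TCIRG1, the a3 isoform of the V0 sector, was lowest at 1.31. Of the other members, PSAP, the precursor of the saposins that present sphingolipids to their hydrolases, reached 340 CPM per kb and the tetraspanin CD63 reached 252.

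The spread within diets was not the same for both classes. The coefficient of variation across the 5 control libraries had a median of 22.4% over hydrolases and 13.8% over V-ATPase subunits, against 16.5% over all tested genes. In DOP and WCOC the hydrolases had medians of 15.7% and 15.6%, against 15.1% and 16.2% over all tested genes. Control libraries 3 and 5 were the highest pair of the 15 libraries for 18 of the 46 tested members (39.1%), compared with 658 of all tested genes (4.41%). These were 10 hydrolases (CTSA, CTSB, CTSD, CTSH, CTSS, CTSZ, GLA, GUSB, ARSB and ASAH1), 6 V-ATPase genes (ATP6V0A1, TCIRG1, ATP6V1A, ATP6V1B2, ATP6AP1 and ATP6AP2), PSAP and SCARB2. The pattern was looked for after the values had been seen.

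**Figure D1:**
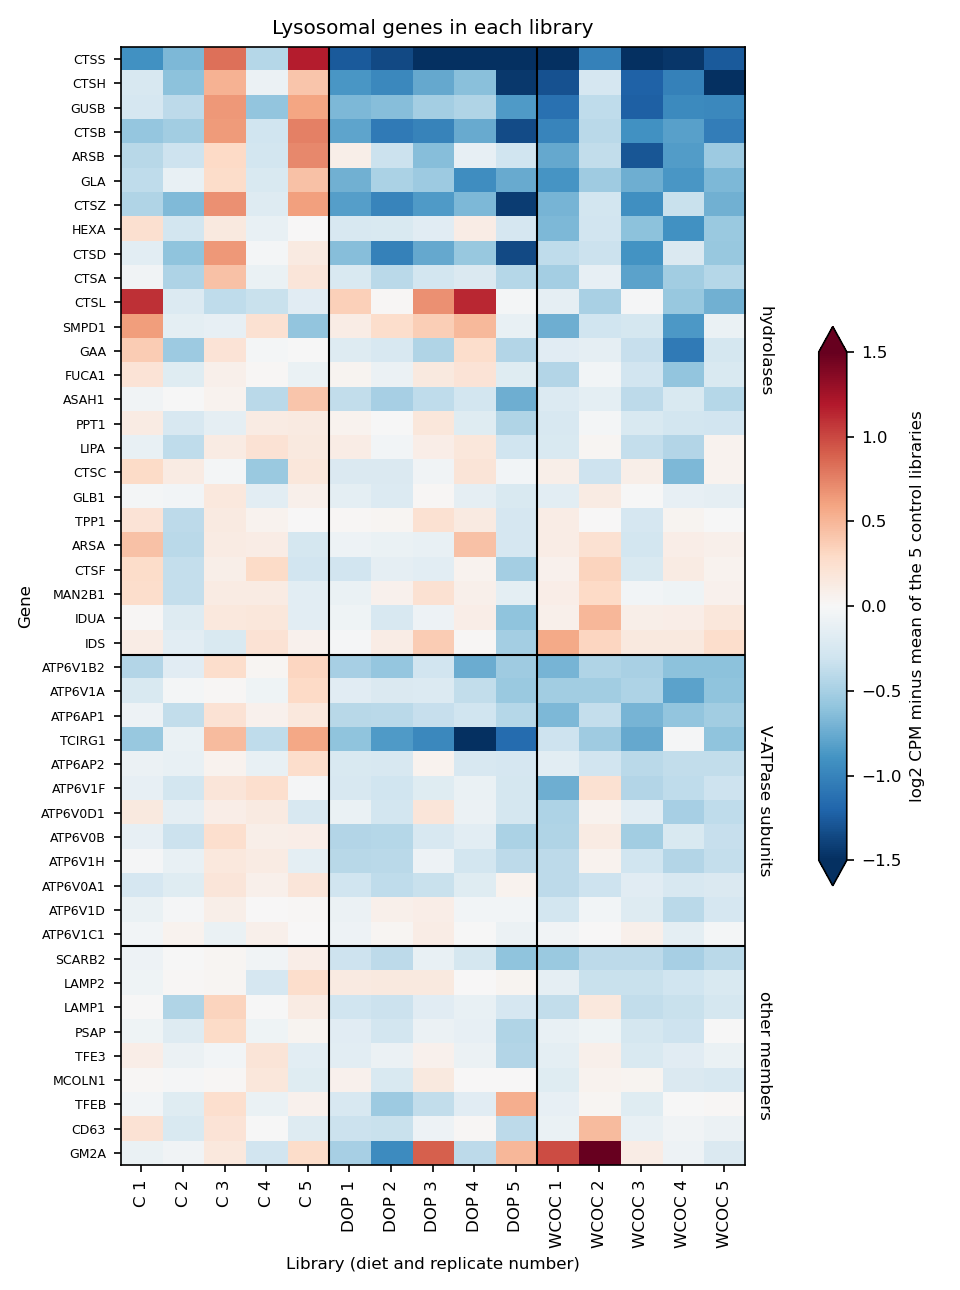
Level of the 46 tested genes in each of the 15 libraries, as log2 CPM (prior count 1) minus the mean of the 5 control libraries. Rows are grouped into hydrolases, V-ATPase subunits and other members and ordered by the WCOC vs. C log2FC, and colours end at 1.5 in either direction. CTSS has the lowest WCOC vs. C log2FC of the hydrolases (-1.66) and IDS the highest (0.29), and control libraries 3 and 5 are the highest pair in 18 of the 46 rows.

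DOP was compared with C to find which lysosomal genes differed with dry olive pulp in the feed. Control library 5 is the only control on the flow cell of the DOP libraries, so that apart from it diet and flow cell cannot be told apart here. The hydrolases CTSS and GLA and the V-ATPase subunit TCIRG1 fell and no member rose, so that 3 of 46 were called. Of all genes 0.764% were called and 0.550% were called lower. The log2FC was below 0 for 35 of the 46 members, compared with 47.8% of all genes, and the members' median was -0.22 beside a median of 0.01 over all genes. An unadjusted p under 0.05 was found for 17 members, each lower in DOP, compared with 17.6% of all genes. The 5 DOP libraries lay wholly below the 5 controls for 7 members (1.76% of all genes), namely CTSB, CTSH, CTSS, CTSZ, GLA, SCARB2 and TCIRG1. DOP library 5 had the lowest hydrolase sum of all 15 libraries (3255 CPM) and the highest skeletal muscle sum (45900 CPM). Skeletal muscle markers had a median log2FC of 3.50 in DOP vs. C (0 of 5 called). With their mean log2 CPM as a covariate, 0 hydrolases, 0 V-ATPase subunits and 41 of all genes were called. An unadjusted p under 0.05 was then found for 9 hydrolases and 7 V-ATPase subunits. The part of muscle in these values was not tested.

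CTSS (chr4:98415273-98442952, plus strand, positions of the whole gene on Sscrofa11.1 here and below) encodes cathepsin S, a cysteine protease of antigen-presenting cells that trims the invariant chain of MHC class II. Its level was 66.6, 78.4, 222, 93.3 and 283 CPM in control libraries 1 to 5, and 52.4, 49.0, 38.8, 42.6 and 33.7 CPM in DOP libraries 1 to 5. All DOP values were below all controls, and control libraries 3 and 5 stood far above the other controls. The log2FC was -1.78 (SE 0.35, adjusted p = 0.0367). In WCOC libraries 1 to 5 CTSS was at 39.4, 61.7, 36.7, 45.3 and 52.2 CPM, again below every control, with a log2FC of -1.66 against C (SE 0.35, adjusted p = 0.0103). CTSS showed the largest fall of any member in both comparisons with C, which share the same control libraries.

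For other cathepsins the call in DOP depended on the tool: CTSB, CTSD, CTSZ and CTSH missed the threshold on the adjusted p in edgeR, were called lower by DESeq2 (507 calls over all genes) and were not called by limma-voom (19 calls). CTSB (chr14:15014139-15035081, minus strand), a cysteine protease, was at 656, 681, 1525, 796 and 1650 CPM in the controls and at 565, 468, 490, 581 and 385 CPM in DOP. The groups did not overlap, and the highest values were again those of control libraries 3 and 5. Its log2FC was -1.09 (SE 0.25, adjusted p = 0.0567). CTSD (-0.90, adjusted p = 0.0582), CTSZ (-1.04, adjusted p = 0.0600) and CTSH (-0.97, adjusted p = 0.0828) were on the same side of the threshold in edgeR. CTSL, an endopeptidase, had the largest positive value of the hydrolases in DOP, a log2FC of 0.37 (adjusted p = 0.554), with 72.0 CPM in control library 1 and at most 29.8 CPM in the other controls.

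GLA (chrX:83024582-83032273, minus strand) encodes alpha-galactosidase A, which removes terminal galactose from globotriaosylceramide. It was at 15.2, 18.3, 23.8, 16.8 and 26.7 CPM in C, at 11.9, 14.2, 13.5, 10.3 and 11.6 CPM in DOP, and at 10.7, 13.6, 11.9, 10.8 and 12.3 CPM in WCOC. Every DOP and WCOC library was below every control, and the 2 olive diets overlapped each other throughout. The fall was -0.71 on the log2 scale in DOP (SE 0.15, adjusted p = 0.0424) and -0.77 in WCOC (SE 0.15, adjusted p = 0.00714). Direct comparison of WCOC with DOP gave -0.05 (SE 0.15, adjusted p = 0.852).

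TCIRG1 (chr2:4844627-4860562, minus strand) is the a subunit isoform of the proton pump that is best known from the ruffled border of osteoclasts. It was at 7.50, 10.3, 15.5, 8.49 and 16.6 CPM in C, and at 7.31, 6.15, 5.65, 3.83 and 4.99 CPM in DOP. The groups did not overlap, by a margin of 7.50 against 7.31 CPM, and control libraries 3 and 5 were highest. The log2FC was -1.07 (SE 0.24, adjusted p = 0.0484). In WCOC it was at 8.93, 7.67, 6.497, 10.99 and 7.29 CPM. These values overlapped those of C, and the difference was not called (-0.50, SE 0.23, adjusted p = 0.190). About 9.35% of its exon bases overlap CHKA on the opposite strand, and the strand option of the counting is not given in the sources used here. Overlaps with opposite-strand genes were larger for CTSA (28.5%), CD63 (22.6%), PSAP (15.5%) and LIPA (10.5%), whose counts carry the same limit.

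**Figure D2:**
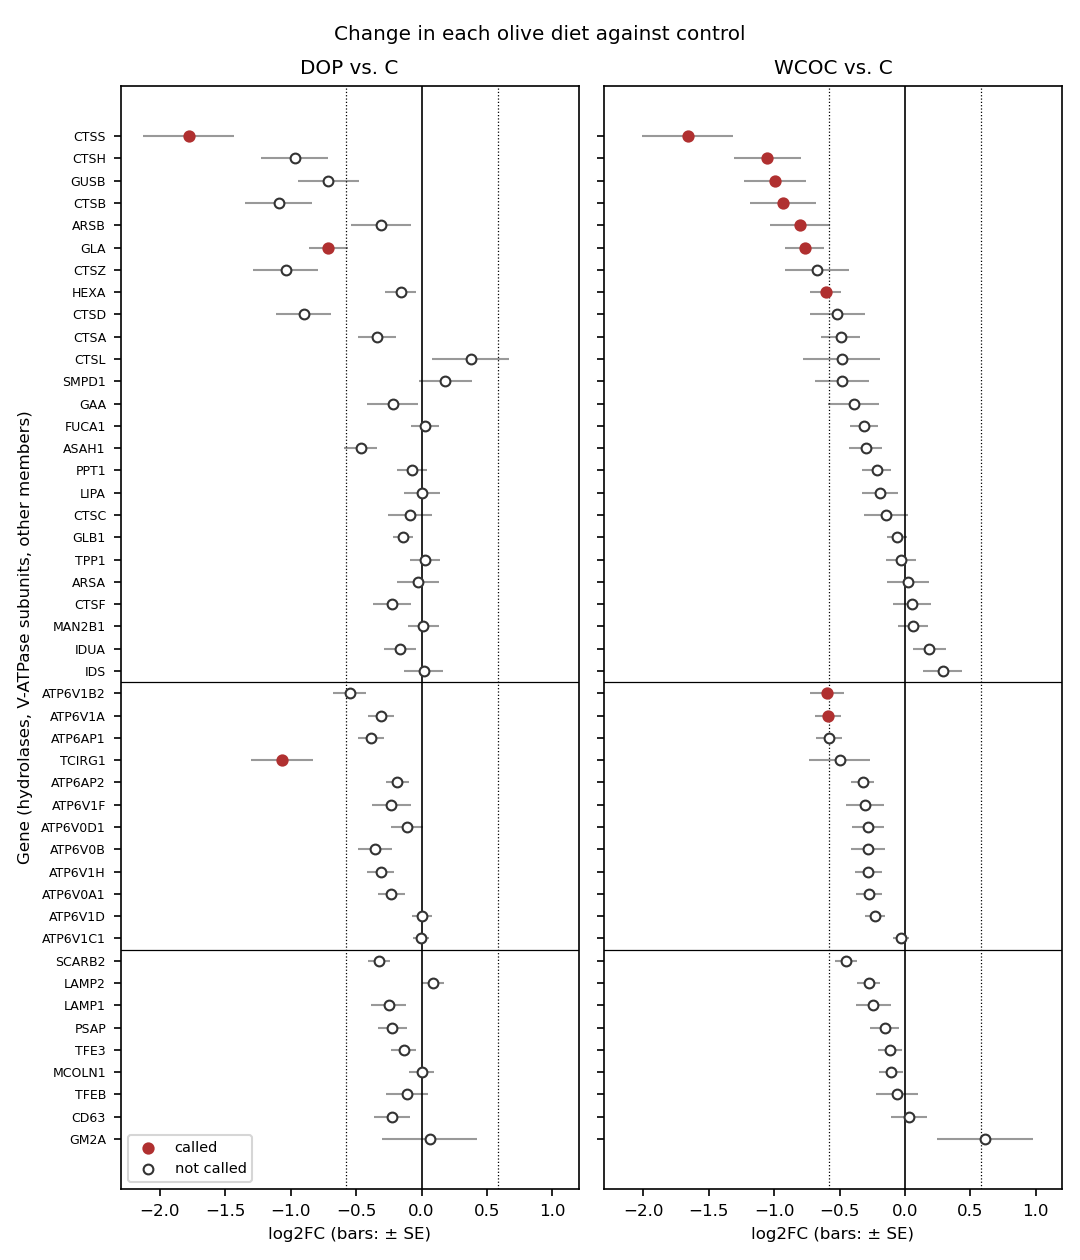
The log2FC of the 46 tested genes in DOP vs. C (left) and WCOC vs. C (right), with bars of 1 SE, in the row order of the heat map. Filled points are called genes and dotted lines mark the 0.58 limit. The 3 filled points on the left and the 9 on the right all lie below 0, and GM2A at 0.61 in WCOC is an open point with the widest bar.

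TCIRG1 was the only V-ATPase gene called in DOP. Of the 12 tested, 11 had a log2FC below 0 and 7 an unadjusted p under 0.05, with a class median of -0.27. ATP6V1B2, the B subunit that forms the catalytic head of V1 together with the A subunit, came nearest with -0.55 (SE 0.13, adjusted p = 0.0566). ATP6V1D in the central stalk (0.00) and ATP6V1C1 in the peripheral stalk (-0.01) had log2FC values near 0.

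WCOC was compared with C to find which lysosomal genes differed with wet olive cake. A fall was called for 9 of 46 members and a rise for none, namely the hydrolases GLA, HEXA, CTSS, GUSB, CTSH, CTSB and ARSB and the V1 subunits ATP6V1A and ATP6V1B2. Of all genes 6.25% were called and 3.93% were called lower. The log2FC was below 0 for 39 of 46 members (49.4% of all genes), with a median of -0.28 beside 0.00 for all genes, and 24 members had an unadjusted p under 0.05, each lower in WCOC (26.4% of all genes). The groups did not overlap for 7 members, each lower in WCOC (3.87% of all genes): CTSS, GLA, HEXA, SCARB2, ATP6V1A, ATP6V1B2 and ATP6AP2.

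HEXA (chr7:60878531-60911537, plus strand) encodes the alpha subunit of beta-hexosaminidase, which degrades GM2 ganglioside. It was at 124, 87.2, 117, 97.5 and 106 CPM in C and at 66.4, 86.1, 69.0, 56.2 and 71.5 CPM in WCOC. Controls 3 and 5 were not the highest here, since control library 1 was, and the diets were separated by the narrow gap between 87.2 and 86.1 CPM. The log2FC was -0.61 (SE 0.12, adjusted p = 0.00756). In DOP HEXA was at 89.7, 90.1, 94.1, 114 and 88.3 CPM, above every WCOC library, and WCOC vs. DOP gave -0.45 (SE 0.12, adjusted p = 0.0275), under the limit on the log2FC. DOP vs. C gave -0.16 (SE 0.12, adjusted p = 0.531).

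GUSB (chr3:16672071-16686520, plus strand), the glucuronidase of glycosaminoglycan breakdown, was at 36.0, 32.7, 67.4, 28.5 and 64.8 CPM in C and at 19.8, 33.0, 18.4, 22.1 and 22.04 CPM in WCOC. Only WCOC library 2 reached into the control range. Its log2FC was -0.99 (SE 0.23, adjusted p = 0.0175). ARSB (chr2:87614938-87779553, minus strand), a sulfatase that acts on dermatan and chondroitin sulfate, was at 7.99, 8.59, 13.1, 8.80 and 17.6 CPM in C and at 6.28, 8.27, 4.37, 5.97 and 7.35 CPM in WCOC, where library 2 again overlapped the controls. Its log2FC was -0.80 (SE 0.23, adjusted p = 0.0397).

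CTSH (chr7:48084882-48106072, minus strand), an aminopeptidase, was at 217, 167, 367, 241 and 340 CPM in C and at 103, 214, 110, 127 and 89.1 CPM in WCOC. Only WCOC library 2 overlapped the controls, and the log2FC was -1.05 (SE 0.25, adjusted p = 0.0196). CTSB was at 491, 742, 519, 557 and 475 CPM in WCOC, with library 2 again inside the range of the controls. Its log2FC of -0.93 (SE 0.25, adjusted p = 0.0324) was called in WCOC, and the direct comparison of WCOC with DOP gave 0.16 (SE 0.25, adjusted p = 0.727). CTSD had a log2FC of -0.52 in WCOC (adjusted p = 0.136).

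**Figure D3:**
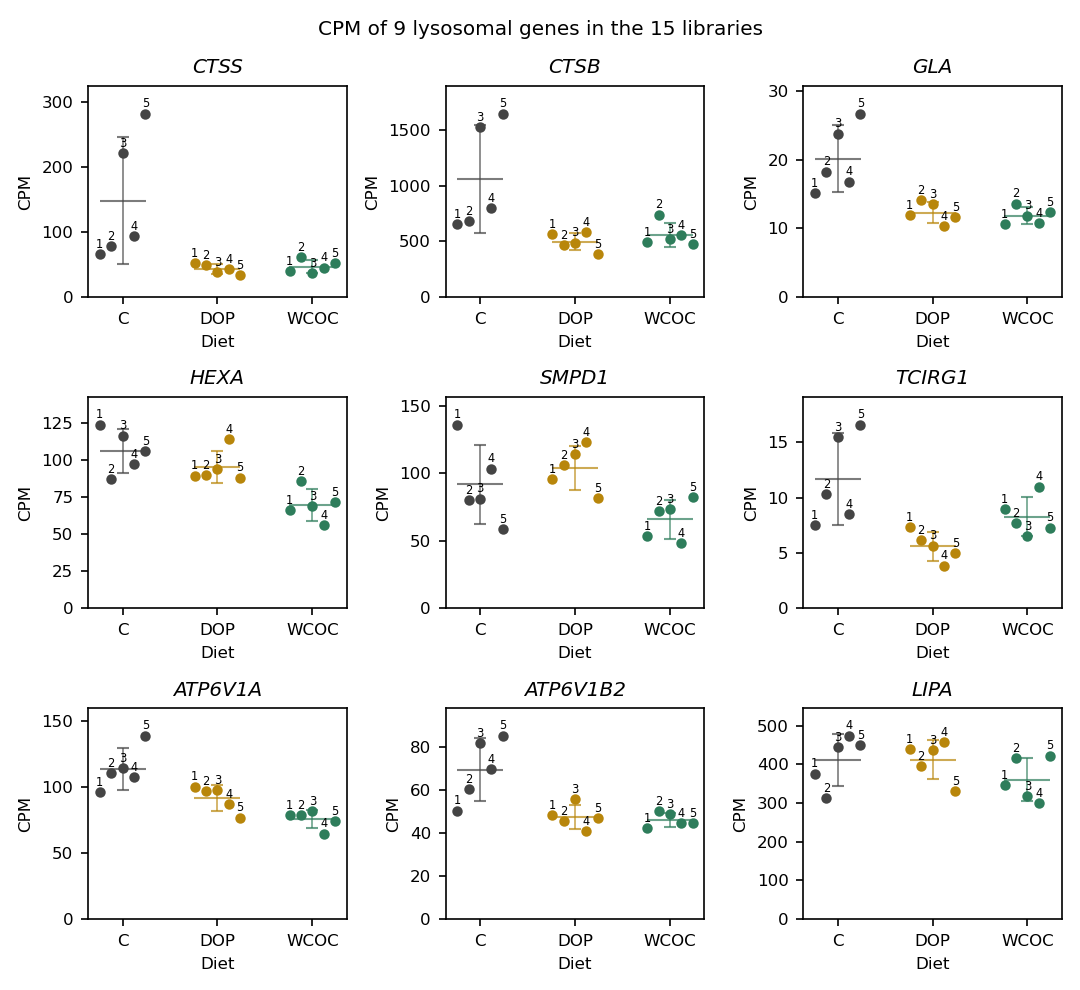
CPM of 9 members in the 15 libraries, by diet, with replicate numbers beside the points and the mean ± SD (n = 5) as a bar. Axes start at 0. For CTSS and CTSB, control points 3 and 5 lie far above the other 13 points, whereas HEXA and ATP6V1A are lowest in WCOC and LIPA overlaps across the diets.

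ATP6V1A (chr13:146128664-146165269, minus strand) is the catalytic A subunit of the pump, where ATP is hydrolysed. Its level was 96.3, 110, 114, 108 and 139 CPM in C, 100, 96.6, 97.4, 87.1 and 76.8 CPM in DOP and 78.7, 78.5, 81.6, 64.7 and 74.3 CPM in WCOC. WCOC lay wholly below C and DOP lay between them, overlapping both. The log2FC was -0.59 in WCOC (SE 0.10, adjusted p = 0.00362) and -0.31 in DOP (SE 0.10, adjusted p = 0.148). ATP6V1B2 (chr14:4289257-4318587, plus strand) was at 50.4, 60.5, 81.6, 69.5 and 85.3 CPM in C and at 42.2, 50.01, 48.7, 44.7 and 44.5 CPM in WCOC. The lowest control and the highest WCOC library were 50.4 and 50.01 CPM, and the log2FC was -0.59 (SE 0.13, adjusted p = 0.0115).

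Values on either side of the 0.58 limit were close to each other in WCOC. ATP6V1A (-0.587), ATP6V1B2 (-0.595) and HEXA (-0.607) were the members just inside it. ATP6AP1, an accessory protein of pump assembly, was just outside at -0.577, with an adjusted p of 0.00344. All 12 tested V-ATPase genes had a log2FC below 0 in WCOC, the class median was -0.29, and the unadjusted p was under 0.05 for 9. ATP6AP2, the renin receptor that also belongs to the pump, had a log2FC of -0.32 (adjusted p = 0.0323), while ATP6V0A1, the a1 isoform of V0, was at -0.28 (adjusted p = 0.103) and ATP6V0D1 at -0.28 (adjusted p = 0.155). The largest fall of the other members was that of SCARB2, the receptor that carries beta-glucocerebrosidase to the lysosome, at -0.45 (adjusted p = 0.00604), under the limit on the log2FC. ATP6AP1, ATP6AP2 and SCARB2 are among the members singled out after their values had been seen.

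The calls are given by group of hydrolases as a description, beside 6.25% of all genes in WCOC and 0.764% in DOP. In WCOC 3 of 9 cathepsins, 3 of 8 glycosidases, 1 of 3 sulfatases and 0 of 5 lipid and thioester hydrolases with TPP1 were called, and in DOP 1 of 9, 1 of 8, 0 of 3 and 0 of 5. Counted by unadjusted p under 0.05, the last group had 2 members in WCOC and 1 in DOP, and DESeq2 and limma-voom also called 0 of them in both. The tools differed most for the cathepsins in DOP, of which DESeq2 called 5 of 9 and limma-voom 0, against 1 by edgeR. In WCOC the cathepsins came to 4 with DESeq2 and 2 with limma-voom, and the glycosidases to 3 with each. LIPA was at 313 to 474 CPM in C, 331 to 458 CPM in DOP and 300 to 423 CPM in WCOC, with a log2FC of 0.00 in DOP (SE 0.14) and -0.19 in WCOC (SE 0.14, adjusted p = 0.401). GAA, which degrades lysosomal glycogen, had a log2FC of -0.22 in DOP and -0.39 in WCOC (adjusted p = 0.606 and 0.213). IDS, an iduronate sulfatase, had the largest positive value among hydrolases in WCOC, 0.29 (adjusted p = 0.235).

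No membrane, activator or regulatory member was called in any comparison by edgeR, and DESeq2 and limma-voom also called 0 of the 9. An unadjusted p under 0.05 was found for 1 of the 9 in DOP vs. C, for 2 in WCOC vs. C and for 1 between the olive diets. LAMP1, an abundant glycoprotein of the lysosomal membrane, had a log2FC of -0.25 in DOP and -0.24 in WCOC (adjusted p = 0.350 and 0.260). CD63 was at -0.22 and 0.03, and MCOLN1 at 0.00 and -0.11, with SE of 0.14 and 0.09. TFEB was at 38.3 to 51.5 CPM in C, 29.7 to 63.1 CPM in DOP and 38.2 to 44.2 CPM in WCOC, with log2FC values of -0.11 and -0.06 (adjusted p = 0.768 and 0.854). TFE3 had -0.14 and -0.11 (adjusted p = 0.489 and 0.471). GM2A, the activator that lifts GM2 ganglioside for hexosaminidase, was at 136, 196, 74.4, 64.9 and 59.2 CPM in WCOC and at 56.4 to 83.0 CPM in C. Libraries 1 and 2 of WCOC were high and the others overlapped the controls, and the log2FC of 0.61 was not called (SE 0.37, adjusted p = 0.304).

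The 2 olive diets were also compared directly, with flow cell confounded with diet in all libraries but control 5, so that diet and flow cell cannot be told apart here. Markers of other tissues differed too, with a median log2FC of -5.87 over skeletal muscle markers (3 of 5 called lower in WCOC) and of -0.58 over fibroblast markers (2 of 7 called lower), and their part in the values below was not tested. One member was called, lower in WCOC (1 of 46, beside 7.76% of all genes called and 5.11% called lower). An unadjusted p under 0.05 was found for 9 members (28.1% of all genes), and 26 had a log2FC below 0 (49.9% of all genes). The called member was SMPD1 (chr9:3324091-3328493, minus strand), the acid sphingomyelinase that yields ceramide. Its level was 95.5, 106, 114, 123 and 81.6 CPM in DOP, 53.3, 71.9, 73.4, 48.5 and 82.2 CPM in WCOC and 136, 80.1, 81.4, 104 and 58.4 CPM in C. Only WCOC library 5 reached the DOP range, while the controls spanned both. The log2FC was -0.66 (SE 0.20, adjusted p = 0.0454). HEXA and LAMP2 did not overlap between these diets (4.77% of all genes were lower without overlap). LAMP2, a membrane protein needed for fusion of autophagosomes with lysosomes, was at 210 to 231 CPM in DOP and 165 to 189 CPM in WCOC, with a log2FC of -0.36 (SE 0.09, adjusted p = 0.0172), under the limit on the log2FC. CTSL had the largest negative hydrolase value, -0.86 (SE 0.30, adjusted p = 0.0701). No V-ATPase subunit was called by edgeR, DESeq2 or limma-voom, and 3 of 12 had an unadjusted p under 0.05, among them ATP6V1A (-0.28, adjusted p = 0.0873) and TCIRG1 (0.57, adjusted p = 0.130).

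Markers of macrophages were also lower on average in both olive diets than in C, though not in every library. Their sum in DOP library 1 (609 CPM) lay above those of control libraries 1, 2 and 4 (441 to 524 CPM). Of 19 tested genes of a macrophage list, 8 were called lower in WCOC and 2 in DOP, with median log2FC of -1.21 and -1.04. Of all genes 3.93% were called lower in WCOC and 0.550% in DOP. The count depended on the tool: DESeq2 called 15 of the 19 in WCOC and 9 in DOP, and limma-voom 8 and 0. A list of lipid-associated macrophage genes (TREM2, GPNMB, LGALS3, CLEC7A and OLR1) had 5 of 5 called lower in WCOC and 4 in DOP. A list of osteoclast-like giant cell genes such as SPP1, MMP9 and DCSTAMP had 4 of 6 and 5 of 6. In DOP, DESeq2 called 5 of 5 and 5 of 6 of these lists, and limma-voom 0 of each. The lists were written with earlier results of these data known, so these counts are description only. The study had already reported SPP1, MMP9, TREM2 and CLEC7A as lower in DOP. Other cell types moved too: 4 of 7 fibroblast markers were called lower in WCOC vs. C, 1 of 9 adipocyte markers and 1 of 5 endothelial markers were called higher there, and the part of these shifts in the lysosomal values was not tested. The giant cell list summed to 578 and 869 CPM in control libraries 3 and 5, to 56.9 to 163 CPM in the other controls, to 5.13 to 24.4 CPM in DOP and to 20.7 to 109 CPM in WCOC. The hydrolases summed to 7239 and 6904 CPM in control libraries 3 and 5, to 4262 to 5499 CPM in the other controls, to 3255 to 4745 CPM in DOP and to 4004 to 5214 CPM in WCOC. CTSB and CTSD made up a large part of these sums. Without them the sums were 3986 and 4045 CPM in control libraries 3 and 5 and 2853 to 3657 CPM in the other controls. They were then 2437 to 3469 CPM in DOP and 2894 to 3589 CPM in WCOC. The V-ATPase genes summed to 662 to 801 CPM in C, 583 to 677 CPM in DOP and 536 to 645 CPM in WCOC.

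**Figure D4:**
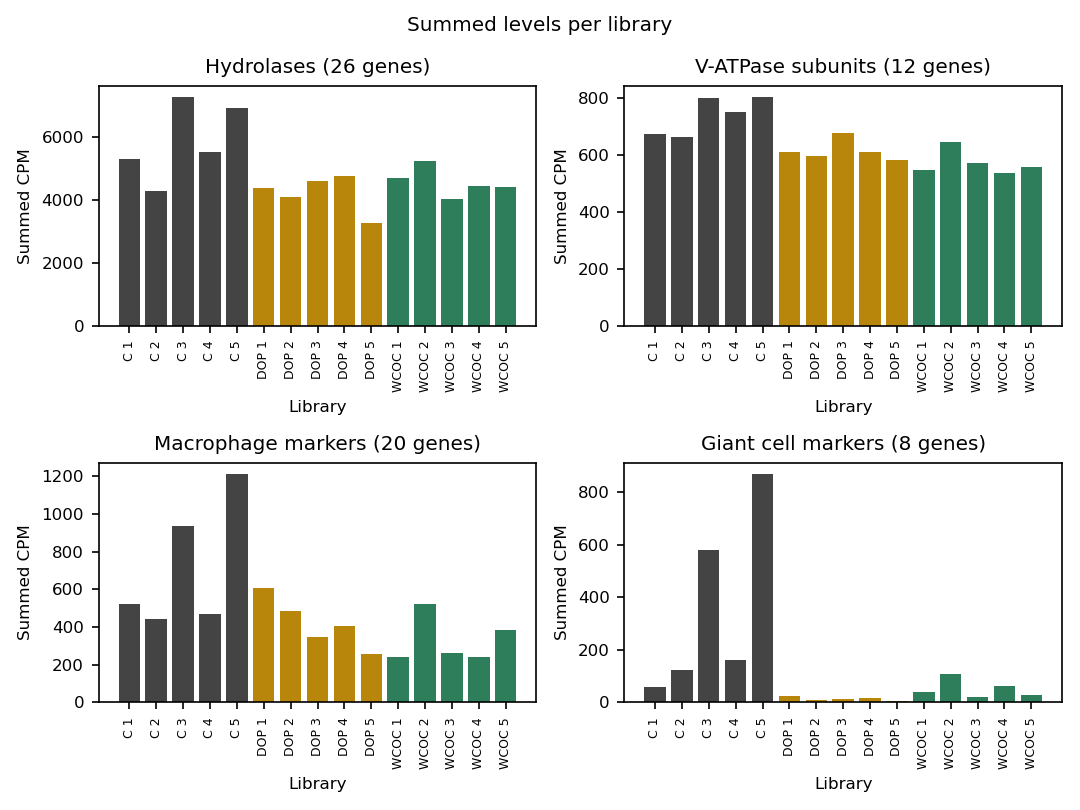
Summed CPM per library of the 26 matched hydrolases, 12 V-ATPase genes, 20 macrophage markers and 8 giant cell markers, in bars coloured by diet. Axes start at 0. In each of the 4 panels control libraries 3 and 5 have the 2 highest bars, with 869 CPM for the giant cell list in control library 5, and WCOC library 2 has the highest bar of its diet.

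With the mean log2 CPM of the macrophage list as a covariate, no hydrolase or V-ATPase subunit was called in either comparison with C (0 of 25 and 0 of 12, edgeR). An unadjusted p under 0.05 was then found for 4 hydrolases and 2 V-ATPase subunits in DOP, and for 3 and 3 in WCOC. In that fit CTSS had a log2FC of -0.77 in DOP (adjusted p = 0.405) and -0.39 in WCOC (adjusted p = 0.604), HEXA -0.43 (adjusted p = 0.295) and ATP6V1A -0.36 (adjusted p = 0.255) in WCOC. Over all genes 2 were called in DOP and 50 in WCOC, against 114 and 933 without the covariate. The covariate was itself uneven across diets, averaging 4.12 for control libraries, 3.30 for DOP libraries and 3.04 for WCOC libraries. Adjusting for it also takes away part of the diet difference, so this fit cannot separate macrophage level from diet. The part of macrophages in the lysosomal values was not tested. Without control libraries 3 and 5, chosen after the data were seen, 0 members of either class were called in DOP (7 hydrolases and 4 V-ATPase subunits at an unadjusted p under 0.05), and 0 of all 15252 genes tested in that fit were called either (1776 at an unadjusted p under 0.05). In WCOC 1 hydrolase was called, CTSS at -0.76 (adjusted p = 0.0478), and 0 V-ATPase subunits (7 at an unadjusted p under 0.05), with 289 calls over all genes. HEXA then had -0.56 (adjusted p = 0.0588) and ATP6V1A -0.47 (adjusted p = 0.0316). Within flow cell A, WCOC vs. C gave GLA (-0.65, adjusted p = 0.0333) and HEXA (-0.62, adjusted p = 0.0366) as the only hydrolases called, while CTSS was at -1.30 (adjusted p = 0.0510) and ATP6V1A at -0.51 (adjusted p = 0.0179), and 486 genes were called in all.

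Leaving out 1 library at a time, in 15 fits, moved the calls over all genes as well as those of the members. In DOP vs. C the count over all genes ranged from 0 to 200. It was 0 without control 3 or 5 or DOP 2 or 4, 1 without DOP 5 and 4 without DOP 3 (1893 to 2639 genes at an unadjusted p under 0.05 in these 6 fits). CTSS was called in 9 of the 15 fits (adjusted p from 0.0105 to 0.107) and lost in those same 6. GLA was called in 4 of 15 (0.0146 to 0.119, kept without control 1 or 2 or WCOC 1 or 2) and TCIRG1 in 2 of 15 (0.0216 to 0.138, kept without control 1 or DOP 1). In WCOC vs. C the count over all genes ranged from 468 to 1163. There CTSS (0.00415 to 0.0341) and GLA (0.00321 to 0.0246) were called in 15 of 15. GUSB was called in 14 (up to 0.0531, lost without WCOC 1) and CTSH in 13 (up to 0.0595, lost without control 3 or WCOC 1). HEXA was called in 13, lost without control 1 or WCOC 4, and ATP6V1A in 13, lost without control 5 or WCOC 4, in each case with an adjusted p of at most 0.0250 and a log2FC under the limit. ATP6V1B2 was called in 12 (up to 0.0366, lost without control 3 or 5 or WCOC 1). CTSB and ARSB were called in 9 each (up to 0.0857 and 0.0982, lost without control 3 or 5 or WCOC 1, 3, 4 or 5). SMPD1 in WCOC vs. DOP was called in 4 of 15 (0.0284 to 0.114, kept without control 1 or 5, DOP 5 or WCOC 5).

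Outside the members, 7 lists of genes of or around the lysosome held 81 tested genes. In WCOC 5 of these (6.17%) were called, each lower, beside 6.25% of all genes called and 3.93% called lower. In DOP 1 (1.23%) was called, also lower, beside 0.764% of all genes called and 0.550% called lower. Of 20 other lysosomal enzymes, 0 were called in DOP (6 at an unadjusted p under 0.05, and 0 by DESeq2 and limma-voom) and 1 in WCOC. That was ACP5, the tartrate-resistant acid phosphatase used as an osteoclast and macrophage stain, at 2.01, 2.35, 6.53, 2.65 and 6.03 CPM in C and 0.52 to 1.62 CPM in WCOC. All WCOC values were below all controls, and the log2FC was -1.68 (SE 0.38, adjusted p = 0.0152). Of 17 other membrane proteins, SLC11A1, a metal transporter of phagosomes, was called lower in DOP (-3.09, adjusted p = 0.0277) and in WCOC (-2.03, adjusted p = 0.0173), and LAPTM5 in WCOC (-0.96, adjusted p = 0.0491). Control libraries 3 and 5 were the highest of all libraries for ACP5, SLC11A1 and LAPTM5.

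Another list held 15 tested genes, of MiT transcription factors and of nutrient sensing at the lysosome (Rag GTPases, Ragulator and partners such as MTOR). Of these, the MiT factor TFEC was called lower in WCOC (-1.32, adjusted p = 0.0254). In DOP 0 were called, and 5 had an unadjusted p under 0.05, of which 4 were lower. There DESeq2 called 2, of which 1 was lower, and limma-voom 0. MITF was at 0.04 in DOP and 0.23 in WCOC (adjusted p = 0.945 and 0.474). CSTB, a cystatin that inhibits cathepsins, was called lower in WCOC at -1.02 (adjusted p = 0.00859). None of 6 genes of mannose 6-phosphate sorting and none of 16 autophagy genes was called in a comparison with C by edgeR, DESeq2 or limma-voom, with 0 and 2 at an unadjusted p under 0.05 in DOP and 1 and 1 in WCOC. Of 9 alternative V-ATPase isoforms, 3 were tested and 0 were called against C. An unadjusted p under 0.05 was found for 1 in DOP, where it was higher, and for 0 in WCOC. DESeq2 called 1 in DOP, also higher. ATP6V0D2, the d2 isoform found in osteoclasts, lay under the filter and was not tested. It was at 0.245, 0.769, 2.07, 0.506 and 1.95 CPM in C, at most at 0.123 CPM in DOP and at most at 0.0953 CPM in WCOC, so that each control library was above each library of the olive diets.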

How the data were processed

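Backfat RNA of 15 Iberian pigs was sequenced as paired-end reads. The authors aligned the reads to Sscrofa11.1 with HISAT2, run with a strand-specific setting, and the deposited values are raw counts per Ensembl gene from HTSeq-count, neither normalised nor pooled. Whether strand was used in counting, and which Ensembl release, is not given in the sources used here, so counts of overlapping genes are uncertain. Per file, 5 summary lines (23.4% to 32.8% of the counts) were left out, leaving 22373715 to 34745218 counts on 30477 genes. Diet and replicate came from the labels and flow cell from the run identifiers.

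Counts were analysed with edgeR 4.0.16 in R 4.3.3: filterByExpr (14918 genes), TMM scaling (factors 0.857 to 1.21), 1 mean per diet over all 15 libraries and two-sided quasi-likelihood tests with Benjamini-Hochberg adjustment. The thresholds (0.05 and a log2FC of 0.58) follow the study's methods. CPM used TMM-scaled library sizes and log2 CPM a prior count of 1. Replicates are separate pigs. The script was tested on simulated data. The members and all gene lists were chosen with earlier results of these data known, so their values are described and no list was tested. Gene symbols came from a reference table, and lengths, positions and promoter sequences from RefSeq's annotation of Sscrofa11.1. Members named with values were those called, the 3 most abundant per kb of each class, a fixed set of enzymes and regulators, those without a test, the largest change in each class, and in each outside list the largest changes among called genes.

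Alternatives were the tests of DESeq2 1.42.0 and of limma-voom (limma 3.58.1), size factors in place of TMM, no filter or a minimum of 10 counts per library, a fit limited to the 2 diets in question, blocking on replicate number, a covariate (flow cell, macrophage list or skeletal muscle list), flow cell A alone, no limit on the log2FC and each library left out in turn (15 fits). Leaving out control libraries 3 and 5, or DOP libraries 2, 4 and 5, was added after the data were seen. Figures were drawn with Python 3.11.15 and matplotlib.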

Additional observations from a re-analysis of the deposited data

Results flagged for a closer look

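Dixon's test was applied to each diet's 5 values of the 46 tested members and of the 3 class sums, 147 groups in all, and chance flags about 1 in 20. It set apart 1 library in 11 groups, and each was the highest of its diet. WCOC library 2 did so for 6 members: ATP6V1H (57.8 CPM, next highest 45.2), CD63 (497, next 345), GUSB (33.0, next 22.1), IDUA (160, next 127), LAMP1 (259, next 194) and PPT1 (121, next 105). DOP library 4 did so for ARSA (47.2 CPM, next 33.0) and HEXA (114, next 94.1). DOP library 3 was set apart for ATP6AP2 (96.0 CPM, next 79.3), DOP library 5 for TFEB (63.1, next 38.6) and control library 1 for CTSL (72.0, next 29.8). WCOC library 2 also had the highest macrophage sum of its diet (520 CPM, the others 240 to 386), and DOP library 5 the highest skeletal muscle sum of all libraries (45900 CPM). Their part in these values was not tested.

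WCOC and DOP libraries, which were also on different flow cells, differed with an adjusted p under 0.05 for SMPD1 (log2FC -0.66), HEXA (-0.45) and LAMP2 (-0.36). With flow cell as a covariate, which rests on control library 5 alone to link the flow cells, these were -1.44 (adjusted p = 0.253), -0.45 (adjusted p = 0.429) and -0.04 (adjusted p = 0.914), and 1 gene of 14918 was called in that fit against 1158 without the covariate. Diet and flow cell cannot be told apart here.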

How the results depend on the processing

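The counts of called members changed under most alternatives, always on the side of lower levels, and no called value reversed. The counts reported were 2 hydrolases and 1 V-ATPase subunit in DOP vs. C, 7 and 2 in WCOC vs. C, and 1 and 0 in WCOC vs. DOP. Hydrolases in DOP vs. C came to 6 with DESeq2, 4 with the flow cell covariate, and 0 with limma-voom, only the diets compared, the macrophage or skeletal muscle covariate, control libraries 3 and 5 left out, or DOP libraries 2, 4 and 5 left out. V-ATPase subunits in DOP vs. C came to 2 with the flow cell covariate and to 0 in the other fits that gave no hydrolase and without the filter. Hydrolases in WCOC vs. C came to 2 in flow cell A alone, 1 without control libraries 3 and 5 and 0 with the macrophage covariate. V-ATPase subunits in WCOC vs. C came to 4 with no limit on the log2FC and to 0 with limma-voom, flow cell or macrophage covariate, flow cell A alone, or without control libraries 3 and 5. Hydrolases in WCOC vs. DOP came to 2 with DESeq2, no limit on the log2FC or only these diets, and to 0 with limma-voom, no filter, any of the 3 covariates or DOP libraries 2, 4 and 5 left out. The cause was not tested. With 1 library left out, hydrolases ranged from 0 to 5, 3 to 9 and 0 to 2 in the 3 comparisons and V-ATPase subunits from 0 to 2, 0 to 3 and 0 to 0. Over all genes, DESeq2 called 507, 1219 and 1527 and limma-voom 19, 882 and 822, against 114, 933 and 1158, and a fit on only the diets compared called 2 in DOP vs. C. With the replicate block, hydrolases came to 0, 3 and 0 and V-ATPase subunits to 0, 1 and 0, with 0, 473 and 561 calls over all genes (1950 at an unadjusted p under 0.05 in DOP vs. C), but same-numbered libraries share only a number (correlations of their deviations from -0.50 to 0.34, own number best in 1 of 15). With 1 pen per diet, pen could not be separated from diet.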
